A study of Homo sapiens with 10 samples.

Results

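Cathepsins are proteases of the lysosome, and cystatins are the small proteins that block many of them. Transcripts of both families were compared among 10 subclones of U87MG, a line of human glioma cells that was kept as an adherent culture with serum. The members were a list of 10 genes taken by symbol from a table of 11880 gene symbols. Of these, 9 were in the table: 7 proteases (CTSA, CTSB, CTSC, CTSD, CTSF, CTSS and CTSZ) and 2 inhibitors (CST3 and CSTB). CTSK was not analysed here.

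Cells of the line had been spread thinly, and single-cell colonies were picked and expanded, per the labels; the subclones carry the numbers 1, 2, 3, 5, 6, 8, 9, 10, 11 and 12. All were untreated and collected in exponential growth. Every subclone has 1 Affymetrix array and no repeat, so a difference between 2 subclones cannot be judged against the error of either. Values are log2 units made by the authors with RMA, and 1 unit is a 2-fold difference; levels of different genes were not compared.

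Most cathepsins are made as inactive precursors, carried to the lysosome by mannose 6-phosphate receptors, and activated there at acid pH. CTSB, CTSC, CTSF, CTSS and CTSZ are papain-like cysteine proteases, CTSD is an aspartic protease, and CTSA is a serine carboxypeptidase that also shields other lysosomal enzymes. Cystatins bind papain-like enzymes tightly and reversibly and do not block aspartic or serine proteases. In gliomas, cathepsin B in particular has been studied for its part in invasion. These data hold transcripts only, and no enzyme activity was measured.

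The following promoter bases are shown because they carry the letters CACGTG, the core of the element through which the transcription factors TFEB and TFE3 act on many lysosomal genes. They come from RefSeq, build GRCh38.p14, from a table of 250 bases before and 50 after each gene's start, which held 6 of the 9 members. CACGTG reads the same on both strands and is in capitals.
CTSA, chr20:45891269-45891334, plus strand: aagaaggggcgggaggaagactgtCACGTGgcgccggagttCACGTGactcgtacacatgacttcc
CTSD, chr11:1763945-1763998, minus strand: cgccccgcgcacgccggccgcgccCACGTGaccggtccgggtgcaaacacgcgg
CTSF, chr11:66568628-66568753, minus strand: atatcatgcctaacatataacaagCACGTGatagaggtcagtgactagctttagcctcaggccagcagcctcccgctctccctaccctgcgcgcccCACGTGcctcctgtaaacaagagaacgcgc

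The motif begins 42 and 25 bases before the start of CTSA, 47 before that of CTSD, and 123 and 51 before that of CTSF. These letters were in 3 of the 6 member promoters and in 7.26% of the 35116 promoters of the table. They were not in the windows of CTSC, CTSZ and CST3. A match is a description of the letters, not a measured binding site.

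The arrays themselves differed. Subclone 10 had the lowest median deviation of tested genes from their own means (-0.29), followed by subclone 11 (-0.08), and subclone 9 had the highest (0.11). The upper quartile was lowest in subclone 10, at 6.75. Of 7095 tested genes, those whose highest value reached the table's median of 5.00, 25.8% were highest in subclone 9 and 31.8% were lowest in subclone 10. The variance tests, member spans, class means and correlations were therefore also computed after each array's median over tested genes had been subtracted. These medians ran from 6.31 in subclone 10 to 6.97 in subclone 9. Counts of highest and lowest values, and levels of markers and other genes, are given as deposited only. Of the glioma markers, CD44 was at 9.83 ± 0.27 and CHI3L1 at 11.81 ± 0.73 (SD, n = 10), while GFAP, OLIG2 and S100B lay below the table's median in every subclone. NES, the other marker, ranged from 5.14 in subclone 5 to 7.55 in subclone 12.

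CTSS stood apart from the other members. CTSS encodes cathepsin S, an elastin-degrading enzyme that also trims the invariant chain of MHC class II molecules in antigen-presenting cells. It was at 7.56 in subclone 9, against 4.20 to 5.04 in the other 9, with a median of 4.74. The distance from subclone 9 to the median of the others was 2.82, and the whole span corresponds to 10.2-fold. In RNA from a whole culture, fewer cells with a transcript and less of it per cell cannot be told apart. Without subclone 9 the span was 0.84 and the SD 0.30 in place of 0.96. CTSS was the 1 member of 9 with a subclone at least 1 log2 unit above all others, a pattern found in 3.93% of tested genes. It reached the table's median of 5.00 in 2 subclones, 9 and 12. The other 8 lay below that median, at 4.20 to 4.93, and RMA compresses differences between weak signals.

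CTSF, which encodes cathepsin F, gave the opposite picture in that subclone. Its values were 5.10 in subclone 9 and 5.86 in subclone 10, and 6.67 to 7.61 in the other 8, with a median of 7.22 over all 10. Subclone 9 lay 2.13 below the median of the other 9. The span of 2.51 corresponds to 5.70-fold, and without subclone 9 it was 1.75. After subtraction of the array median, the deviation of CTSF from its own mean was -1.97 in subclone 9 and -0.54 in subclone 10.

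**Figure D1:**
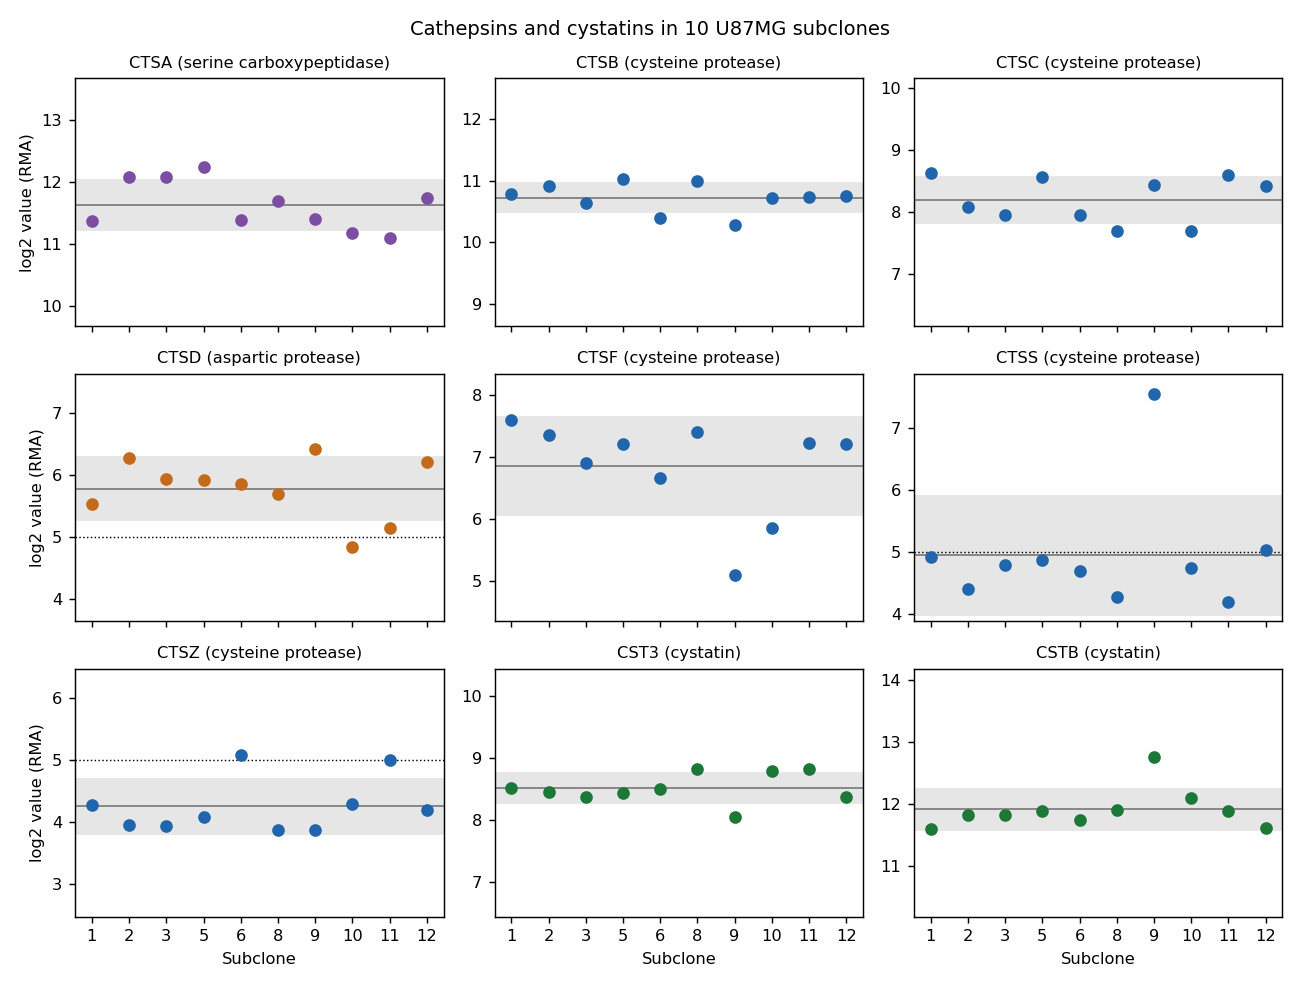
Log2 values (RMA) of the 9 members in each of the 10 subclones, 1 point per array; the line and grey band are the mean and 1 SD over the subclones, the dotted line is the table's median of 5.00, and every panel spans 4 log2 units. The value of CTSS is 7.56 in subclone 9, above the 4.20 to 5.04 of the others, CTSF is lowest in subclones 9 and 10, and CTSB, CTSC and CST3 span less than 1 unit as deposited (1.10, 1.12 and 1.41 with array medians subtracted).

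Among the other cysteine proteases, the SD of CTSB exceeded that of 18.4% of tested genes, and that of CTSC exceeded 50.5%. These ranks take no account of mean level. Against a trend fitted to genes of similar mean, the SDs were 1.08 and 1.13 times the trend. CTSB, cathepsin B, had its lowest value in subclone 9 (10.28), a median of 10.75, and its highest in subclone 5 (11.02). Subclone 8 was nearly as high (11.00) and subclone 6 nearly as low (10.40). CTSC encodes the dipeptidyl peptidase that activates serine proteases of immune cells. It lay between 7.68 in subclone 10 and 8.62 in subclone 1, with a median of 8.25. Subclones 1, 5, 11, 9 and 12 lay at 8.41 to 8.62, and the others at 7.68 to 8.08.

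CTSZ, a carboxypeptidase also called cathepsin X, was highest in subclones 6 (5.08) and 11 (5.01). These were the 2 subclones in which it reached the table's median. Elsewhere it lay between 3.86 and 4.29, and RMA compresses differences between such weak signals. The distance from subclone 6 to the median of the other 9 was 0.99.

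CTSD and CTSA are the proteases that cystatins do not block. CTSD, the main aspartic protease of the lysosome, was highest in subclone 9 (6.43) and lowest in subclones 11 (5.14) and 10 (4.84), with a median of 5.89. Its values followed the arrays' medians closely (Pearson r = 0.93, Spearman rho = 0.95, n = 10 arrays). After subtraction of those medians its span was 0.93 in place of 1.59. CTSA had a median of 11.55 and was highest in subclones 5 (12.24), 3 (12.09) and 2 (12.07). It was lowest in subclones 10 (11.18) and 11 (11.10), and its correlation with the arrays' medians was 0.70 (rho = 0.75). With the medians subtracted, CTSA deviated by 0.46, 0.32 and 0.28 in subclones 5, 3 and 2, still its highest values, and by 0.01 in subclone 10. What part the state of these arrays has in either pattern was not tested.

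Both inhibitors were measured well above the table's median in every subclone. CST3 encodes cystatin C, the main secreted cystatin. It lay between 8.05 in subclone 9 and 8.83 in subclone 8, with a median of 8.48. Subclones 8, 11 and 10 were nearly level at 8.80 to 8.83. CSTB encodes stefin B, the cystatin of the cytosol, whose loss causes progressive myoclonus epilepsy. It was at 12.76 in subclone 9, against 11.61 to 12.10 in the other 9. Subclone 9 lay 0.93 above their median, and without it the span was 0.49 in place of 1.15. In subclone 9, then, the secreted inhibitor had its lowest value and the cytosolic inhibitor its highest. With the array medians subtracted, CST3 was still lowest in subclone 9 (-0.67), while CSTB deviated by 0.64 in both subclones 9 and 10.

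**Figure D2:**
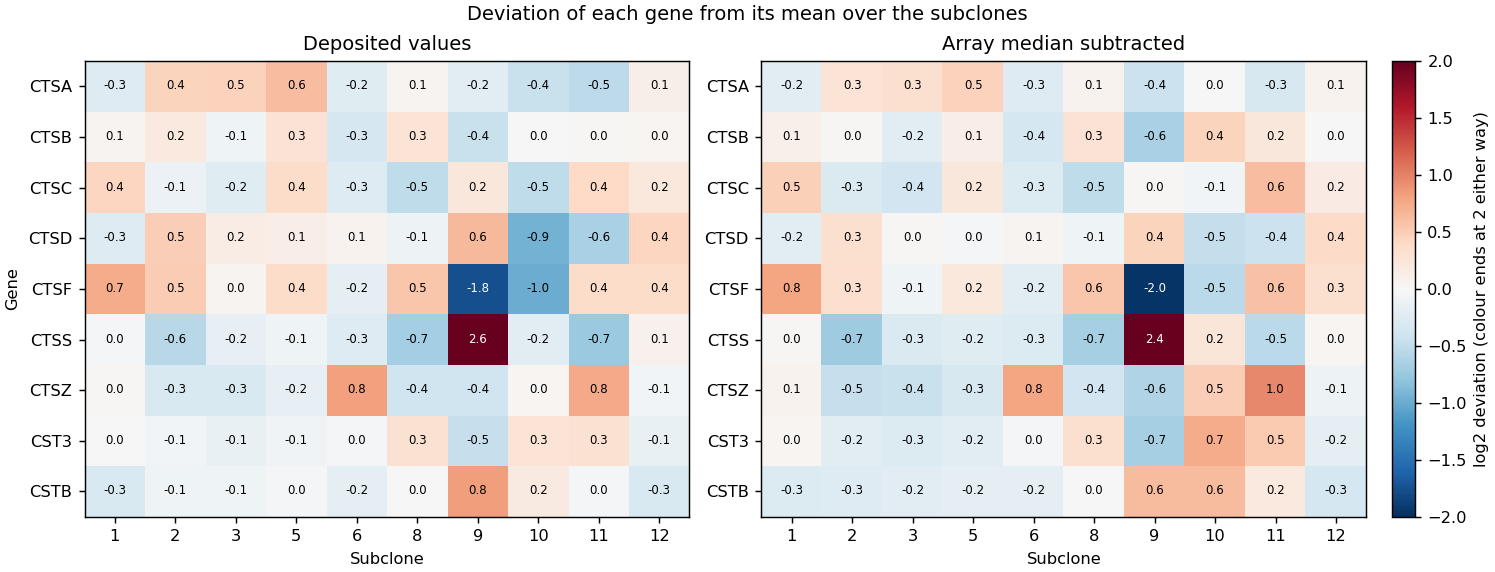
Deviation of each member from its own mean over the 10 subclones (log2), as deposited on the left and with each array's median over tested genes subtracted on the right; columns are subclones. Subclone 9 holds the extremes of CTSF (-1.76) and CTSS (2.61) on the left, and both remain its extremes on the right, at -1.97 and 2.40; CTSD in subclone 10 is at -0.94 on the left and -0.48 on the right.

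Subclone 9 gave 3 of the 9 highest values (CTSS, CTSD and CSTB) and 4 of the 9 lowest (CTSB, CTSF, CTSZ and CST3). Over all tested genes these shares were 25.8% and 11.6%. CTSZ was lowest in subclone 9 by only 0.0007, with subclone 8 next. With array medians subtracted, CSTB deviated by 0.64 in both subclones 9 and 10. Cathepsin S is abundant in macrophages and microglia, so markers of such cells were examined. Over 7 myeloid markers the mean level was 3.84 in subclone 9, within the range of 3.77 to 4.09 over the 10 subclones. PTPRC, the leukocyte antigen CD45, was at 3.19 ± 0.08 (SD, n = 10), and AIF1, TYROBP, CD14, ITGAM and LAPTM5 lay below the table's median everywhere. LAPTM5, a lysosomal protein of leukocytes, had its highest value, 4.34, in subclone 9, against 3.64 to 3.82 in the others. EMR1, the human counterpart of the mouse macrophage antigen F4/80, was not on the marker list and was taken up after its values were seen. It was at 5.54 in subclone 9, against 3.22 to 3.87 in the others. The part of myeloid cells in the value of CTSS was not tested. CSF1R gave all 4 of the 70 marker values that reached the table's median, none of them in subclone 9.

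MHC class II genes, in whose pathway cathepsin S acts, had low values in that subclone. CD74, the invariant chain, was at 6.74 in subclone 9, against 7.17 to 9.71 in the others. HLA-DPA1 and HLA-DQB1 were lowest there too, at 7.16 and 5.56. Of all tested genes, 11.6% were lowest in that subclone. Subclone 12 was next lowest, at 7.17 for CD74, 7.97 for HLA-DPA1 and 5.77 for HLA-DQB1. IRF1, a transcription factor of the interferon response, was highest in subclones 9 (7.34) and 11 (7.14).

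The spread of each gene over the subclones was set against that of genes with a similar mean. By limma's robust variance test with Benjamini-Hochberg adjustment over 7095 genes, 0 of the 9 members passed, as did 0% of all tested genes. At an unadjusted p under 0.05 the test gave 1 member, CTSS (p = 0.0335, adjusted p = 0.960), and 350 genes in all. Because that test is fitted to these same variances, a low count is largely built in. The less strict chi-square test, which compares a variance with the trend alone, called 4 of 9 members, CTSA, CTSF, CTSS and CSTB, and 18.8% of tested genes. With array medians subtracted it called CTSF and CTSS, and 16.5% of genes. Without subclone 9 it called CTSA alone, and 18.2% of genes. The SD of CTSS was 2.62 times the trend at its mean level, that of CTSA 2.18 times, that of CTSF 2.09 times and that of CSTB 1.90 times.

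A span of at least 2-fold was found in 6 of 9 members, against 63.3% of tested genes, and a span of at least 4-fold in 2 (CTSF and CTSS), against 12.9%. The median SD was 0.40 over the members and 0.37 over tested genes, and the median span was 1.15 against 1.18. Both medians lay close to those of all tested genes, but these were not matched for mean level. Against the fitted trend at their mean level, the SD lay above it in 7 of 9 members and in 3974 of 7095 tested genes. With array medians subtracted the 2-fold span was again found in 6 members, but not in the same 6. CTSB, CTSC and CST3 then spanned 1.10, 1.12 and 1.41, and CTSA, CTSD and CSTB fell below 1 unit, at 0.88, 0.93 and 0.99. Without subclone 9 a span of at least 4-fold was found in 0 members. The share of all tested genes with such spans is not given under either setting, so these counts are not read as results about the members. All 9 members passed the filter on low values, CTSS and CTSZ through 2 subclones each.

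**Figure D3:**
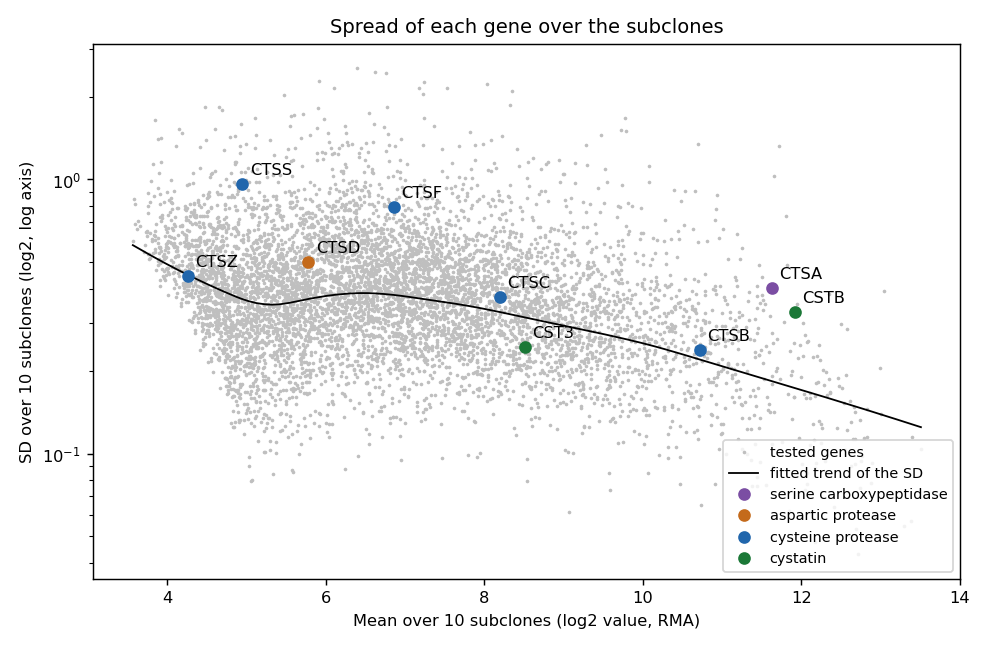
SD over the 10 subclones (log2, on a log axis) against mean level for 7095 tested genes in grey, with the fitted trend as a line and the 9 members coloured by class. CTSS, CTSA, CTSF and CSTB lie at 1.90 to 2.62 times the trend, and CST3 and CTSZ lie below it.

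Proteases were then set against inhibitors. For each subclone the deviations of the 7 proteases and of the 2 inhibitors from their own means were averaged. The protease mean was highest in subclone 5 (0.22), followed by subclone 12 (0.17), and lowest in subclone 10 (-0.44). The inhibitor mean was highest in subclone 10 (0.23), followed by subclone 9 (0.19), and lowest in subclone 12 (-0.22). Proteases minus inhibitors thus ran from 0.39 in subclone 12 through 0.27 and 0.26 in subclones 5 and 1 to -0.67 in subclone 10. In subclone 9 the difference was -0.09, with CTSS and CTSF on opposite sides.

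Over the 10 subclones the protease and inhibitor means had a Pearson r of -0.63 and a Spearman rho of -0.56. These are descriptions of points that share their arrays. Without subclones 5 and 10, the farthest from the median protease mean, r was -0.49 (n = 8). For cysteine proteases alone, the class that cystatins block, r was -0.45, and -0.01 without subclones 1 and 10. With array medians subtracted, r over all 7 proteases was 0.17. The same number was subtracted from both means in each array, which can itself move r. The SD of the inhibitor mean was 0.16 as deposited and 0.31 with array medians subtracted. The sign of r thus depended on the scaling, and which scaling is the better one was not tested. The differences between the 2 means are the same under both scalings, since the array median drops out of them.

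**Figure D4:**
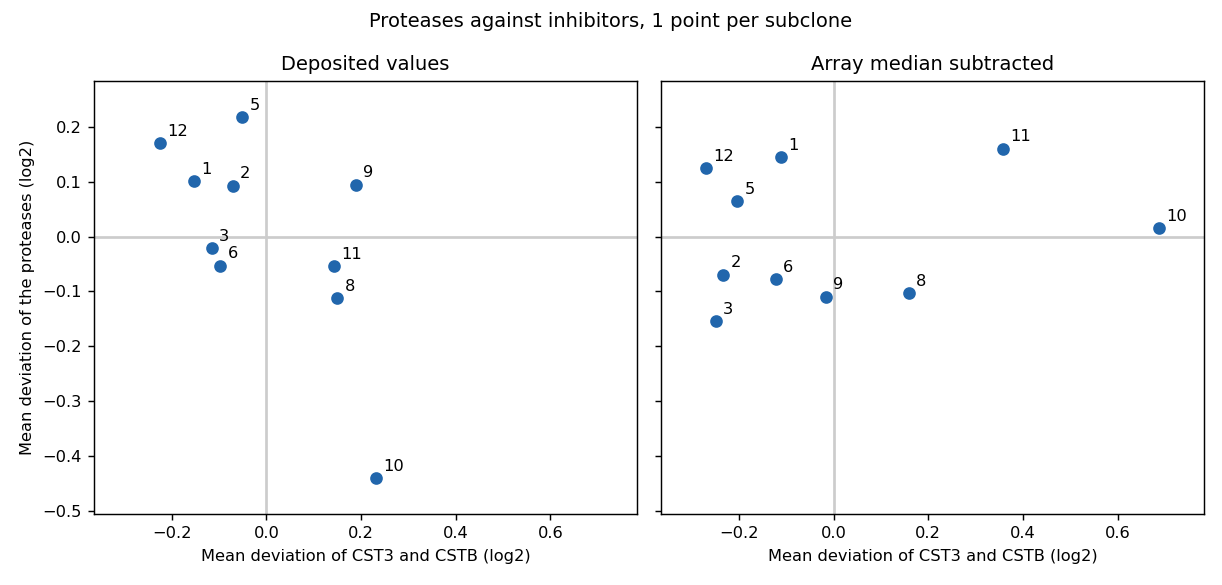
Mean deviation of the 7 proteases (vertical axis, log2) against that of CST3 and CSTB (horizontal axis, log2), 1 point per subclone labelled with its number, as deposited on the left and with array medians subtracted on the right. Subclone 10 is at -0.44 and 0.23 on the left and at 0.02 and 0.69 on the right, and r is -0.63 on the left and 0.17 on the right.

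Single pairs showed which members shared a course. Of the 14 pairs of a protease with an inhibitor, 9 had r below 0 and 5 above, from -0.87 to 0.80. CTSD and CST3 had r = -0.83 (rho = -0.84), -0.74 without subclones 10 and 11, and -0.88 with array medians subtracted. Both genes followed the arrays' medians, CTSD upward and CST3 downward (r = -0.76). CTSS and CST3 had r = -0.79 (rho = -0.78), -0.68 without subclone 9, and -0.48 with array medians subtracted. CTSF and CSTB had r = -0.87 but rho = -0.44. For that pair r was -0.62 without subclone 9 (rho = -0.23), -0.11 without subclones 9 and 10, and -0.70 with array medians subtracted. CTSS and CSTB had r = 0.80 but rho = -0.15, and r = -0.46 without subclone 9, so the sign of that pair rested on subclone 9.

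Between proteases, 10 of 21 pairs had r above 0 and 11 below, with a median of -0.02. CTSB and CTSF had r = 0.74 (rho = 0.78), and 0.48 without subclone 9. CTSA and CTSD, both with CACGTG in the promoter window shown above, had r = 0.60 (rho = 0.67), 0.78 without subclone 9, and 0.10 with array medians subtracted. CTSD and CTSF, which also share it, had r = -0.07, and -0.37 with array medians subtracted but 0.52 without subclone 9. CTSA and CTSF had r = 0.36 (rho = 0.05) and 0.35 with array medians subtracted.

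**Figure D5:**
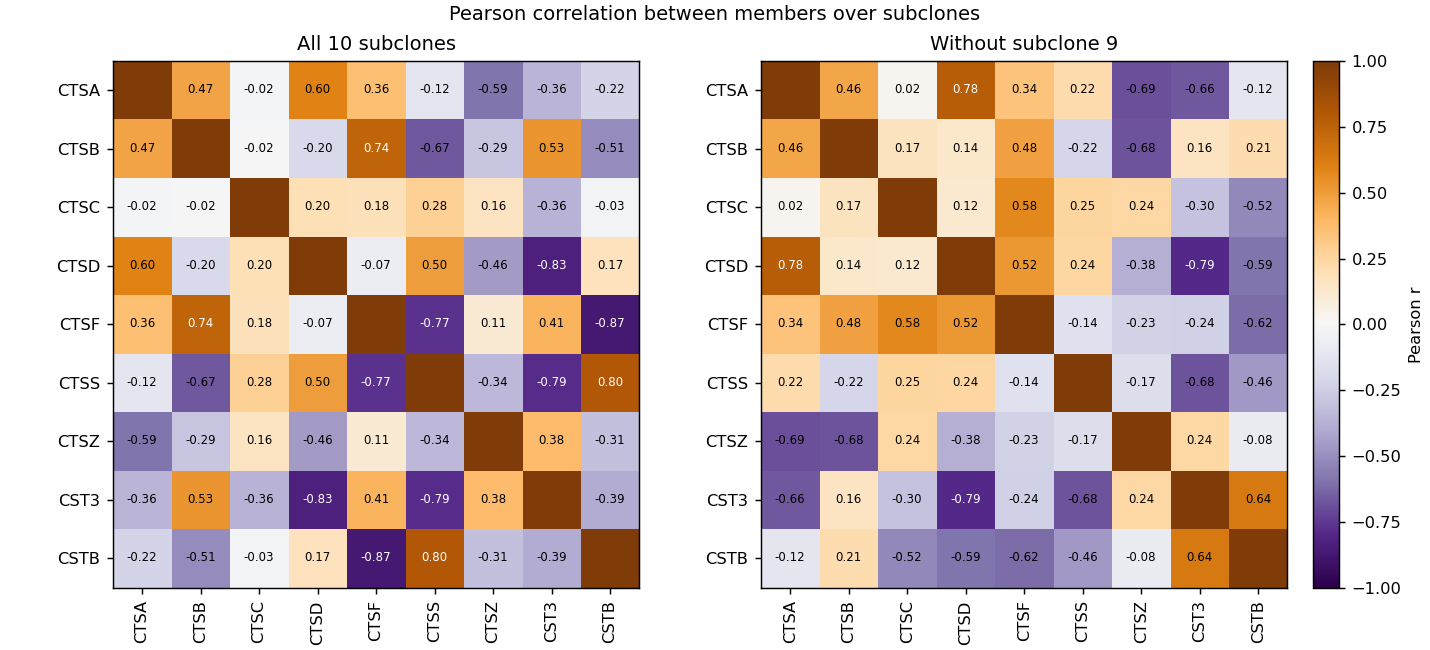
Pearson r between members over all 10 subclones on the left and over 9 subclones, without subclone 9, on the right; each cell gives r, and the diagonal is not labelled. CTSS with CSTB is at 0.80 on the left and -0.46 on the right, while CTSD with CST3 is at -0.83 and -0.79.

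Other cathepsins in the table included CTSL1, CTSO and LGMN. CTSL1, an older symbol of the cathepsin L gene CTSL, was at 11.54 in subclone 11, against 10.14 to 10.89 in the other 9. It had r = 0.77 with CTSZ and 0.86 with array medians subtracted. CTSO, cathepsin O, had the widest spread of these 3, and its SD exceeded that of 99.2% of tested genes. Subclones 3, 2, 5 and 8 had the highest values (8.26, 8.10, 8.00 and 7.61), and subclones 9, 10, 11 and 6 the lowest, from 4.94 to 5.46. Its course was close to that of CTSA (r = 0.87, rho = 0.76, and 0.84 with array medians subtracted). LGMN, the asparaginyl endopeptidase that processes several cathepsins, ranged from 5.16 in subclone 10 to 7.20 in subclone 8. CTSE, CTSG, CTSH, CTSL2 and CTSW lay below the table's median in every subclone.

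Of 12 other cystatins and cathepsin inhibitors in the table, 8 lay below its median everywhere. CSTA, the cytosolic stefin A, reached 5.88, 5.78, 5.14 and 5.08 in subclones 11, 6, 5 and 12; no other subclone exceeded 4.29. SPOCK1, a proteoglycan that can inhibit cathepsin L, ranged from 10.08 in subclone 9 to 11.17 in subclone 8. Of the secreted salivary cystatins, CST1 was highest in subclone 10 (5.47) and CST4 in subclone 1 (5.39). The chi-square test called CSTA and SPOCK1 of the 4 tested, and CTSL1 and CTSO of the 3 other tested cathepsins, against 18.8% of tested genes. By limma's robust test 0 of either list passed adjusted over all genes, and CTSO had an unadjusted p of 0.0102.

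The wider lysosomal system was read against the 18.8% of tested genes that the chi-square test called. Of 26 tested hydrolases other than cathepsins, it called 3: FUCA1, a fucosidase, MANBA, a mannosidase, and NEU1, the sialidase that CTSA binds and protects. NEU1 was highest in subclone 12 (7.93) and lowest in subclone 10 (5.63). FUCA1 lay between 6.23 in subclone 6 and 8.68 in subclone 12. MANBA lay between 5.33 in subclone 9 and 7.42 in subclone 2. SGSH, a sulfamidase, ranged from 5.11 in subclone 8 to 6.74 in subclone 5. Median SD was 0.36 for these hydrolases, 0.37 for 21 membrane and proton pump genes, and 0.33 for 6 sorting genes.

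Of the 21 membrane and proton pump genes, 10 were highest in subclone 9 and 10 were lowest in subclone 10. Over all tested genes these shares were 25.8% and 31.8%. The proton pump subunits ATP6V1B2 and ATP6V1E1 were at 8.48 and 10.83 in subclone 9. LAMP2, a membrane protein needed for autophagy, was by contrast lowest there, at 8.17 against 8.90 to 9.64 in the others. SCARB2, the receptor that carries glucocerebrosidase, ranged from 5.92 in subclone 10 to 7.98 in subclone 8. MCOLN1, a lysosomal cation channel, ranged from 4.47 in subclone 10 to 6.07 in subclone 5. The chi-square test called 3 of the 21, SCARB2, ATP6V1E1 and ATP6V1G1, again against 18.8% of tested genes. By limma's robust test 0 of these 26 hydrolases and 21 membrane and pump genes passed adjusted over all genes, with 1 and 0 at an unadjusted p under 0.05.

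Of the 6 tested sorting genes, 0 passed either limma's robust test (0 at an unadjusted p under 0.05) or the chi-square test. LRP1, an endocytic receptor, lay between 7.05 in subclone 9 and 8.47 in subclone 2. IGF2R, the large mannose 6-phosphate receptor, lay between 8.76 in subclone 11 and 9.86 in subclone 5. GGA1, an adaptor for these receptors, lay between 6.20 in subclone 11 and 7.53 in subclone 9. NAGPA, the enzyme that uncovers the mannose 6-phosphate tag, lay between 4.92 and 5.70. The regulators TFE3 (6.89 ± 0.21) and MITF (7.29 ± 0.24; SD, n = 10) spanned 0.65 and 0.83, and TFEB lay below the table's median in every subclone.

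The 2 tested genes most like each member over the 10 subclones, by Pearson r, were found by ranking all tested genes. High values are usual when this many genes are ranked over 10 points. CTSA was close to LRRC1 (r = 0.98, and 0.93 with array medians subtracted). For CTSB they were ITM2B (0.93) and MAGED1 (0.91), and for CTSC PMPCB, a mitochondrial peptidase subunit (0.90), and DDRGK1 (0.88). For CTSF they were the granin SCG2 (0.92) and NBL1, a BMP antagonist (0.92), and for CTSZ the mitochondrial polymerase POLG and ZNF205 (both 0.94).

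For CTSD the nearest genes were CAMK2G and WWP2 (both 0.96), which with array medians subtracted had r of 0.88 and 0.14. CST3 was most like LOC729799 and the glutathione transferase GSTP1 (both 0.93), and CSTB most like EMR1 (0.95) and the cytokine IL1A (0.94). CTSS was most like SLN and the asparaginyl-tRNA synthetase NARS (both 0.97). NARS kept r = 0.92 without subclone 9. SLN, EMR1 and IL1A reached the table's median in subclone 9 alone, and without it their r was 0.66, 0.69 and 0.67.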

How the data were processed

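Total RNA of 10 subclones was labelled with biotin and hybridised to 1-colour Affymetrix arrays, per the labels' protocols. The deposited table gives 1 log2 value per gene symbol and array, which the authors computed by RMA, per the submitters' processing notes; that the scale is log2 follows from the method and from the range, 2.73 to 13.70. For the RMA version, array type, annotation and joining of probe sets: not given in the sources used here. RMA compresses weak signals and hides differences in total RNA. Arrays carry no read depth; their number limits the precision, and each subclone has 1.

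Members and lists were chosen with earlier results of these data known. Genes whose highest value was at or above the table's median (5.00) were tested (7095). limma 3.58.1 in R 4.3.3 fitted each variance (9 degrees of freedom) to a robust trend over mean level (4.32 prior degrees of freedom). Benjamini-Hochberg adjustment was at 0.05. A non-robust fit and a chi-square test against the trend were alternatives. The procedure was also run on simulated data, and the outcome is not given here. Correlations over subclones carry no p-value. The text names all members, the 2 tested genes most like each, up to 4 genes of largest SD per list, and markers, except 2 genes that are not reported here; ATP6V1E1 and ATP6V1G1 were added as calls after their values were seen. Promoters and gene names come from RefSeq, GRCh38.p14, with 9 of 9 members matched by symbol.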

Additional observations from a re-analysis of the deposited data

Results flagged for a closer look

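In 44 results, each a gene's values or a mean over the 10 subclones, the highest or lowest subclone was compared with its nearest neighbour, and in 4 of these it lay unusually far out, 3 of them in subclone 9 and 1 in subclone 10; chance gives about 1 in 20. CTSS in subclone 9, at 7.56, lay above the next value of 5.04, a gap of 0.75 of the whole range. CSTB in subclone 9, at 12.76, lay above the next value of 12.10, a gap of 0.57 of the range. LAMP2 in subclone 9, at 8.17, lay below the next value of 8.90, a gap of 0.50 of the range. The protease mean deviation in subclone 10, at -0.44, lay below the next value of -0.11, a gap of 0.50 of the range, and that array also had the lowest upper quartile (6.75). Each rests on 1 array, and whether culture, array or subclone underlies it cannot be told apart. The 4 are not a count over all genes named in this report. EMR1 (5.54, next value 3.87) and LAPTM5 (4.34, next value 3.82), for example, also stood apart in subclone 9 and are not among them.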

How the results depend on the processing

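Members past the variance test numbered 0 by limma's robust test (1 at an unadjusted p under 0.05) and by its non-robust fit. The number was also 0 with array medians subtracted, with no filter, and without any 1 subclone (0 to 0). With a filter on mean level it was 0 of 7, as CTSS (mean 4.95) and CTSZ (4.26) were then not tested. By the chi-square test there were 4. Members with at least a 2-fold span numbered 6, and 4 to 6 without any 1 subclone. Those with at least a 4-fold span numbered 2, and 0 to 2 without any 1 subclone, the 0 being without subclone 9. For these alternatives the share of all tested genes with such spans is not given. The correlation of the protease and inhibitor means, -0.63, was 0.17 with array medians subtracted, -0.45 with cysteine proteases alone, -0.35 without subclones 10 and 11 (chosen after seeing the data), and -0.78 (without subclone 9) to -0.44 (without subclone 10) without any 1 subclone. The SD of proteases minus inhibitors over the subclones, 0.32, was 0.28 with CTSL1 added and 0.21 without subclones 10 and 11 (both chosen after seeing the data), 0.22 (without subclone 10) to 0.33 without any 1 subclone, and 0.86 in SD units with each member scaled to unit SD. With 1 array a subclone, no alternative shows whether a difference between subclones would recur in a second culture.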
